A study of Arabidopsis thaliana with 20 samples.

Results

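PYL4 to PYL13 are the monomeric receptors of abscisic acid (ABA), the hormone that holds mature seeds dormant. All 10 genes were taken by their numbers in the family, with earlier results of these data known. They come from 37184 genes counted in siliques of *Arabidopsis thaliana*. The siliques were collected 13 to 20 days after pollination (the study's text calls the same material freshly harvested seeds). The libraries were 3'RNA-seq, in which oligo(dT) primers carrying a molecular identifier (UMI) start cDNA at the polyA tail and only the 3' end of each transcript is counted, so that a count does not depend on transcript length. 4 *msh-1* libraries were set against 4 WT (Col-0) libraries from plants grown in the same greenhouse under long days. *msh-1* is a homozygous T-DNA insertion line in the Col-0 background that disrupts *MUSHER*, a transcriptional unit next to the dormancy gene *DOG1*. It is a single insertion line, so the insertion itself and the loss of *MUSHER* transcription cannot be told apart here. The labels call the samples biological replicates without saying that they came from separate plants, and the p-values measure the spread between these samples.

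A PYL protein is a small pocket that closes over ABA by moving a short gate loop. In that closed form it binds a clade A protein phosphatase (PP2C) and blocks it, which frees SnRK2 kinases to phosphorylate transcription factors such as ABI5. PYR1 and PYL1 to PYL3 pair with themselves when no hormone is present, whereas PYL4 to PYL13 are mostly single molecules and fall into one subfamily of PYL7 to PYL10 and another of PYL4 to PYL6 with PYL11 to PYL13. AHG1 and AHG3 are clade A phosphatases that act in seeds, and the DOG1 protein binds both.

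The codons of the gate loop, the part that closes over the hormone, show how the members vary at a site they all share. They are given for the 6 members with enough counts to test, as 30 coding bases from RefSeq (TAIR10.1, sense strand) with the 15 bases of the loop in capitals. In PYL12 the serine-glycine-any-proline-alanine pattern that located the loop in the other 9 members was not matched, and its stretch was placed by alignment with PYL11.
PYL7: gtcaaaTCTGGTCTTCCAGCAaccaccagt
PYL9: gttaaaTCTGGTCTTCCTGCAacaacatct
PYL5: gtggtcTCTGGACTCCCGGCGgtctcgagc
PYL11: gtggttTCCGGTCTTCCAGCGgagttcagc
PYL12: gtggttTCCGATCTTCCGGCGagttttagc
PYL13: ttagtcTCCGGCTTCCCGGCGgatttcagc
All 10 members spelled the loop differently, and PYL12 differed from PYL11 at 2 of its 15 bases. Over the whole coding sequence PYL11 and PYL12 were the closest of the 45 pairs, with 84.36% identity and 76 differing positions of 486 aligned, 6 of them gaps. The next pair, PYL8 and PYL10, had 73.95% identity. The longest stretch shared by PYL11 and PYL12 was 37 bases, and 2.28% of the 30-base words of the PYL11 transcript also occurred in PYL12. The 3' fragments that are counted come from nearer the end of the transcript, but where the reads fell was not examined. Past the stop codon RefSeq annotates 111 bases for PYL11 and 166 for PYL12, and no 30-base word reaching into them occurred in a transcript of another gene. The last coding bases of the pair, just before them, are shown with the differing letters in capitals.
PYL11: tcggagaGgGtgGCTCaTctAaAGTTGtaa
PYL12: tcggagaAgAtgATGGaGctCaCTtaa
How reads that match both genes were assigned is not given in the sources used here, so some uncertainty in their split remains. PYL7 and PYL9 shared 6 such words, and the other 6 members shared none within the family.

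Library totals ran from 2590800 to 6500907 counts in *msh-1*, against 959004 to 2498295 in WT, and each *msh-1* library was deeper than each WT library. Levels are given as CPM (counts relative to library size) scaled with edgeR's TMM factors. A count of 3, taken as the floor of detection, corresponded to between 0.481 and 3.29 CPM depending on the library. WT 4 and *msh-1* 1 lay lowest on the first principal component, at -30.7 and -17.0, against -2.76 to 16.3 in the other 6 libraries. That component held 53.2% of the variance of 500 genes. Results that turn on WT 4 and *msh-1* 1 are also given without both. A gene was called with an adjusted p under 0.05 in edgeR's quasi-likelihood test over all 10902 genes tested and a fold change over 1.5. DOG1 itself (AT5G45830), the gene next to the insertion, averaged 22.1 ± 1.11 CPM in *msh-1*, against 42.0 ± 5.42 CPM in WT (SD, n = 4 each). Its log2 fold change was -0.92, with an edgeR adjusted p of 0.00448. The 11 seed maturation genes checked (cruciferins, SESA albumins, oleosins) summed to 61250 to 68920 CPM in *msh-1*, against 59298 to 72973 CPM in WT, so the label of seed-bearing tissue holds, and of these SESA4 alone was called (log2 fold change -0.73, edgeR adjusted p = 0.0457). The 10 green tissue genes (RBCS, CAB and LHC genes) summed to 50.6 to 169 CPM in *msh-1*, against 23.0 to 90.9 CPM in WT, lowest in *msh-1* 1 and WT 4. All 6 of them that could be tested had positive log2 fold changes, with a median of 0.96 and none called by edgeR. Without WT 4 and *msh-1* 1, 3 of them were called higher in *msh-1*: CAB1 (log2 fold change 1.52, edgeR adjusted p = 1.77e-05), CAB2 (2.04, edgeR adjusted p = 0.00171) and RBCS3B (2.44, edgeR adjusted p = 0.00232). DESeq2 on all 8 libraries gave an adjusted p of 0.0186 for CAB3 and 0.0224 for RBCS3B. The other green tissue genes had higher values there, among them 0.065 for CAB2 and 0.755 for CAB1. Transcripts of CAB1, CAB2 and RBCS3B were thus higher in *msh-1* in the same comparison of 6 libraries that is used for the receptors below. LHB1B2, LHCA1 and RBCS1A were not called there, at log2 fold changes of 0.73, 0.47 and 0.15 (edgeR adjusted p = 0.0797, 0.411 and 0.745). The part of depth and of green tissue in the values below was not tested. Some values are also given at equal depth or without WT 4 and *msh-1* 1.

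6 of the 10 receptors were expressed well enough to be tested: PYL5, PYL7, PYL9, PYL11, PYL12 and PYL13. PYL4, PYL6 and PYL8 lay near the limit of detection, and PYL10 had no count in any library. None of the 6 was called in *msh-1* against WT by edgeR, DESeq2 or limma-voom, in a comparison where 0.413% of all genes were called (11 higher and 34 lower in *msh-1*). In edgeR 2 of the 6, PYL11 and PYL12, had an unadjusted p under 0.05, as did 8.48% of all genes tested. Both had negative log2 fold changes, and the other 4 had positive log2 fold changes between 0.09 and 0.27. The median over the 6 was 0.15, beside -0.01 over all genes tested.

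**Figure D1:**
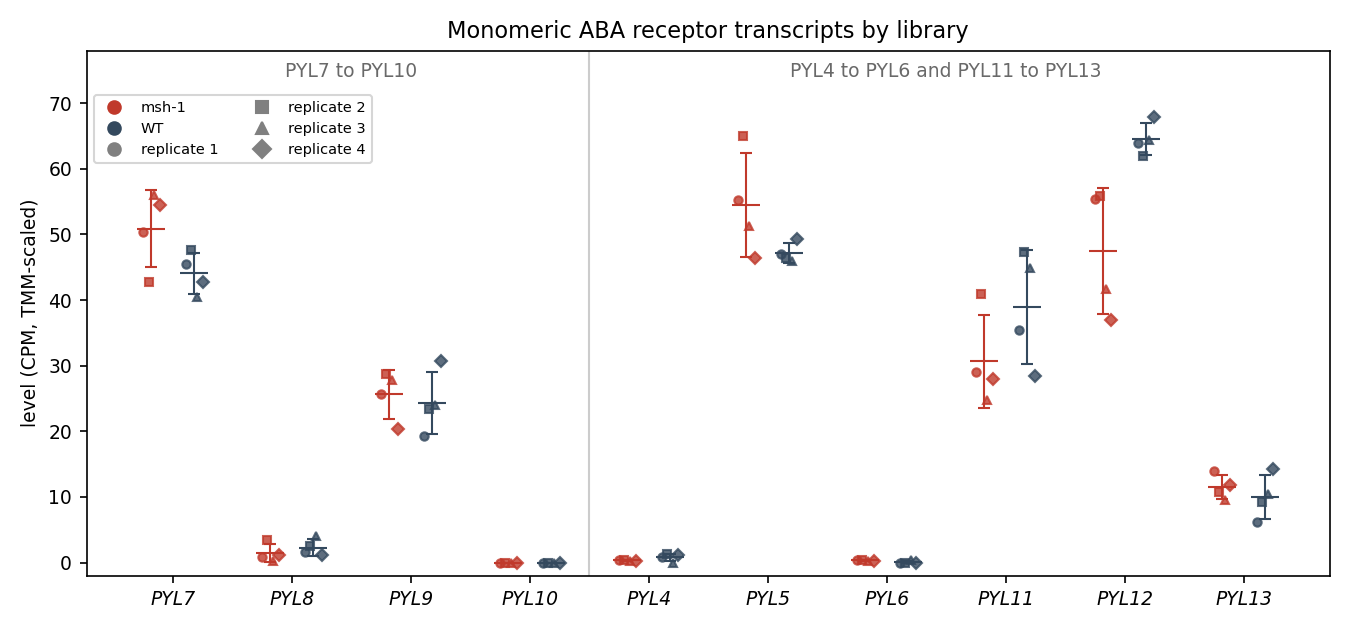
Level of each receptor gene in CPM (y axis, linear) in every library, *msh-1* in red to the left of WT in blue, with marker shapes for replicates 1 to 4 and bars for the mean and SD (n = 4). PYL12 is the only gene whose groups are separate among those tested, with *msh-1* at 36.9 to 55.8 CPM and WT at 61.9 to 67.9 CPM, and PYL4, PYL6, PYL8 and PYL10 lie at the bottom of the plot.

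PYL12 (AT5G45870) was the most abundant of the 10 in WT, above 87.1% of the genes tested. It had 55.4, 55.8, 41.7 and 36.9 CPM in *msh-1* 1 to 4, against 63.9, 61.9, 64.4 and 67.9 CPM in WT 1 to 4, from 135 to 345 counts in *msh-1* and 62 to 161 counts in WT. Every *msh-1* library lay below every WT library, and *msh-1* 3 and 4 were the lowest. Such a separation with *msh-1* lower occurred in 2.19% of the genes tested. The mean was 47.5 ± 9.59 CPM in *msh-1* and 64.5 ± 2.50 CPM in WT (SD, n = 4 each), a fold of 0.739 with a 95% interval of 0.604 to 0.904. The log2 fold change was -0.44 (SE 0.14), with an unadjusted p of 0.00624 and an adjusted p of 0.29 in edgeR. PYL12 ranked 233 of all genes by p. The exact two-sided permutation test gave p = 0.0286, which is the smallest that 4 libraries against 4 allow.

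PYL12 varied by 20.2% among the *msh-1* libraries (coefficient of variation), above the 7.59% that counting alone gives, and by 3.87% among the WT libraries, below the 10.3% from counting. The WT spread was therefore smaller than these counts can resolve. Without WT 4 and *msh-1* 1 the log2 fold change of PYL12 was -0.52 and the edgeR adjusted p 0.027. The fold stayed under 1.5, so the gene was not called. In that comparison of 3 libraries with 3, 3.17% of genes had an adjusted p under 0.05, and 2.53% were called. Leaving out *msh-1* 1 alone gave -0.53 with an edgeR adjusted p of 0.0418. Leaving out any other single library gave edgeR adjusted p values from 0.114 (without *msh-1* 2) to 0.619 (without WT 3). With every library thinned to 959004 counts the log2 fold change ran from -0.66 to -0.30 over 20 draws. The median was -0.43, with a median edgeR adjusted p of 0.516. Random thinning keeps the expected fold as it was, so the part of depth was not tested by it.

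PYL11 (AT5G45860), the neighbour and closest relative of PYL12, was less abundant. It had 29.0, 40.9, 24.7 and 27.9 CPM in *msh-1* 1 to 4, against 35.4, 47.3, 44.8 and 28.5 CPM in WT 1 to 4. The groups overlapped, with *msh-1* 2 above WT 1 and WT 4, and *msh-1* 1 above WT 4. The mean was 30.7 ± 7.08 CPM in *msh-1* and 39.0 ± 8.67 CPM in WT (SD, n = 4 each). The log2 fold change was -0.42 (SE 0.17), with an edgeR adjusted p of 0.494. The exact permutation p was 0.2. Without WT 4 and *msh-1* 1 the log2 fold change was -0.50 and the edgeR adjusted p 0.117. The estimate for PYL11 was thus close to that for PYL12, with a wider spread. The ratio of PYL12 to PYL11 counts was 1.57 ± 0.28 in *msh-1* and 1.73 ± 0.48 in WT (SD, n = 4 each), and its ranges overlapped.

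PYL13 (AT4G18620), the remaining member of this group of 3 close relatives, is known for binding PP2Cs without needing ABA. It was the least abundant of those tested, with 14.0, 10.7, 9.59 and 11.8 CPM in *msh-1* 1 to 4, against 6.16, 9.20, 10.4 and 14.2 CPM in WT 1 to 4. The WT range enclosed that of *msh-1*. Its log2 fold change was 0.27 (95% interval -0.21 to 0.75), with an edgeR adjusted p of 0.798. Its WT counts were 8 to 26 per library, and its RefSeq transcript ends at the stop codon, so that the annotated gene holds no 3' untranslated bases.

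PYL5 (AT5G05440), of the same subfamily, had 55.2, 65.0, 51.3 and 46.4 CPM in *msh-1* 1 to 4, against 47.0, 46.4, 46.0 and 49.3 CPM in WT 1 to 4. *msh-1* 2 was the highest and *msh-1* 4 lay within the WT range. The log2 fold change was 0.21 (95% interval -0.04 to 0.46), with an edgeR adjusted p of 0.676.

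PYL4 (AT2G38310) and PYL6 (AT2G40330), the closest relatives of PYL5 by subfamily, were barely detected. PYL4 had 2, 1, 1 and 1 counts in *msh-1* 1 to 4, against 1, 3, 0 and 1 in WT 1 to 4. PYL6 had 2, 1, 1 and 1 counts in *msh-1* 1 to 4, against 1 count in WT 3 and none in the other WT libraries. No library exceeded the floor for either gene, so no fold is given and a difference was not detectable at this depth.

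In the other subfamily PYL7 and PYL9 carried nearly all counts. PYL7 (AT4G01026) had 50.4, 42.8, 56.0 and 54.4 CPM in *msh-1* 1 to 4, against 45.4, 47.7, 40.4 and 42.7 CPM in WT 1 to 4. 3 of the 4 *msh-1* libraries were above all WT libraries, and *msh-1* 2 was within their range. The log2 fold change was 0.21 (95% interval -0.03 to 0.45), with an edgeR adjusted p of 0.655. The 3' end of PYL7 overlaps AT4G01030 on the opposite strand over 571 bases, and whether counting used strand is not given in the sources used here. AT4G01030 itself had 0 to 7 counts in *msh-1* libraries, against 0 to 5 in WT libraries.

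PYL9 (AT1G01360, RCAR1), one of the first ABA receptors to be described, had 25.7, 28.7, 27.8 and 20.4 CPM in *msh-1* 1 to 4, against 19.3, 23.4, 24.0 and 30.7 CPM in WT 1 to 4. All *msh-1* libraries fell inside the WT range. The estimate was a log2 fold change of 0.09 (95% interval -0.25 to 0.42), with an edgeR adjusted p of 0.941. For PYL5, PYL7 and PYL9 the intervals exclude a change of 1.5-fold in either direction, whereas those of PYL11, PYL12 and PYL13 do not.

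PYL8 (AT5G53160, RCAR3), which is best known from the ABA response of roots, had 5, 9, 1 and 5 counts in *msh-1* 1 to 4, against 2, 6, 10 and 1 in WT 1 to 4. Its highest values were those of WT 3 at 4.00 CPM and *msh-1* 2 at 3.44 CPM, the groups overlapped, and the exact permutation p was 0.286. PYL10 (AT4G27920) was at 0 in all 8 libraries, which allows up to 0.182 CPM over the *msh-1* libraries together and up to 0.418 CPM over the WT libraries together. These limits cover counting error only.

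By mean WT level the order was PYL12, PYL5, PYL7, PYL11, PYL9, PYL13, PYL8, PYL4, PYL6 and PYL10. Among neighbours in this order the WT ranges were separate for PYL12 and PYL5, for PYL9 and PYL13 and for PYL13 and PYL8, and overlapped for the other 6 pairs. PYL12 exceeded PYL5 in 1 of the 4 *msh-1* libraries, against all 4 WT libraries. The step between PYL9 and PYL13 was present in all 8 libraries. RefSeq annotates no bases past the stop codon of PYL13, and whether this lowers its count was not tested.

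The summed level of the 10 genes was 223 ± 21.3 CPM in *msh-1* and 232 ± 8.84 CPM in WT (SD, n = 4 each), and the ranges of 199.6 to 248.2 CPM in *msh-1* and 219.5 to 239.7 CPM in WT overlapped. PYL11 and PYL12 together made up 34.8 ± 3.55% of that sum in *msh-1* and 44.6 ± 2.50% in WT, with ranges of 31.3 to 39.0% and 40.9 to 46.6% that did not overlap. PYL5 supplied 24.4 ± 1.27% of the sum in *msh-1* and 20.3 ± 0.988% in WT. The ratio of PYL12 to PYL5 counts, which needs no scaling between libraries, was 1.00, 0.859, 0.813 and 0.796 in *msh-1* 1 to 4, against 1.36, 1.33, 1.40 and 1.38 in WT 1 to 4. The ratio of PYL12 to PYL7 counts overlapped, at 0.678 to 1.304 in *msh-1* and 1.298 to 1.594 in WT. These shares and ratios were chosen after the values were seen and are a description without a test.

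**Figure D2:**
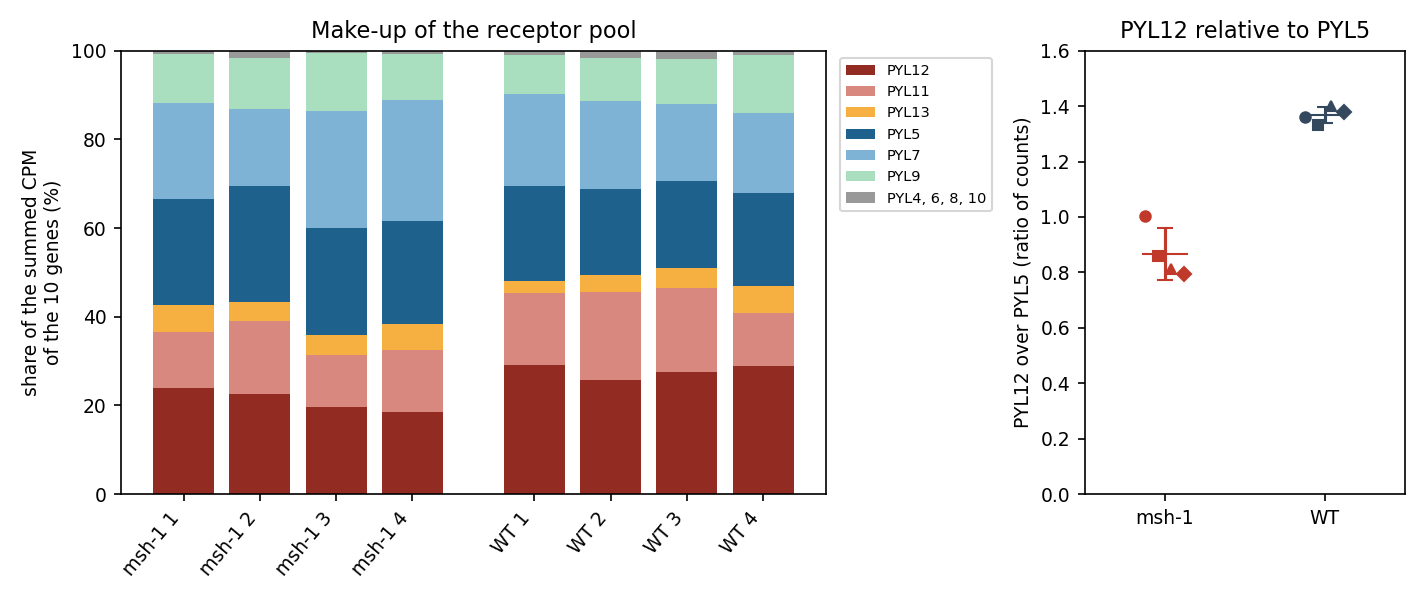
Left, share of each receptor in the summed CPM of the 10 genes (y axis, %) for each library, *msh-1* 1 to 4 and then WT 1 to 4. Right, ratio of PYL12 to PYL5 counts per library (y axis from 0) with mean and SD (n = 4), where *msh-1* lies at 0.796 to 1.00 and WT at 1.33 to 1.40.

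PYL11 and PYL12 are the third and the fourth annotated genes from DOG1 on chromosome 5. Of the 20 annotated genes around DOG1, 10 on each side, 9 could be tested and 4 had no count in any library. None was called by edgeR, in a comparison where 0.413% of all genes tested were called. Beside 8.48% of all genes tested, 3 of the 9 had an unadjusted p under 0.05 in edgeR. These were PYL11, PYL12 and MEE62 (AT5G45800), the last of which is named because of its value. MEE62 had a log2 fold change of -0.65 (SE 0.17) and an edgeR adjusted p of 0.172. Leaving aside both receptors, the other 7 genes tested had log2 fold changes between -0.65 and 0.46, with a median of 0.05. MEE62 and SAG12, at -0.65 and -0.57, lay below both receptors. The SAG12 estimate was loose, with 5.14 to 108 CPM among the *msh-1* libraries and an edgeR adjusted p of 0.881. Without WT 4 and *msh-1* 1, SAG12 had a log2 fold change of -0.40, above PYL11 at -0.50 and PYL12 at -0.52. MEE62, at -0.67 there, stayed below both receptors. The estimates for MEE62, PYL11 and PYL12 were thus negative, but none was called, and the groups of MEE62 and of PYL11 overlapped. Whether their place near DOG1 plays a part was not tested.

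**Figure D3:**
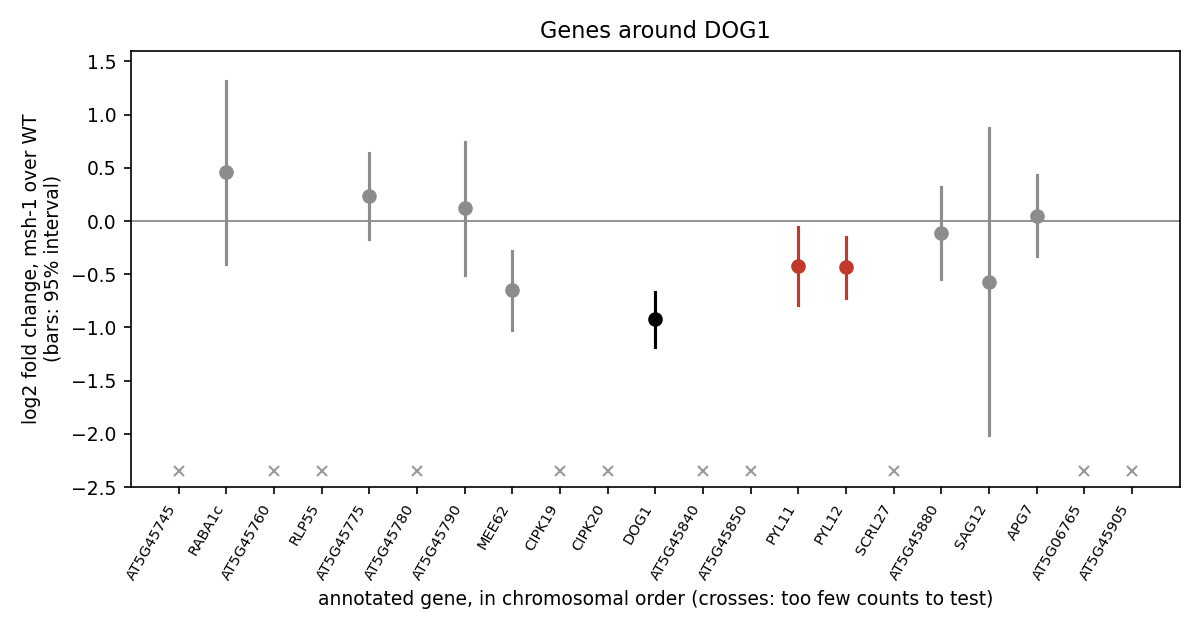
log2 fold change of *msh-1* over WT (y axis) with its 95% interval from edgeR for DOG1 (black), PYL11 and PYL12 (red) and the other annotated genes around DOG1 (grey) in chromosomal order, with crosses for genes too low to test. DOG1 lies at -0.92, PYL11 at -0.42 and PYL12 at -0.44, and the intervals of 6 of the other 7 genes tested include 0.

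Of the rest of the core pathway, 17 of 23 listed genes could be tested and none was called by edgeR, DESeq2 or limma-voom. In edgeR 3 of the 17 had an unadjusted p under 0.05. Of all genes tested, 8.48% had one and 0.413% were called. The median log2 fold change was -0.01, the same as over all genes tested.

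Among the dimeric receptors PYR1 (AT4G17870) was the most abundant, with 38.5, 34.8, 51.6 and 42.1 CPM in *msh-1* 1 to 4, against 42.4, 25.1, 35.6 and 35.1 CPM in WT 1 to 4. The groups overlapped, and the log2 fold change was 0.30 (SE 0.16) with an edgeR adjusted p of 0.655. PYL2 averaged 5.01 ± 1.12 CPM in *msh-1* and 3.29 ± 0.79 CPM in WT (SD, n = 4 each). Its log2 fold change was 0.63, with an edgeR adjusted p of 0.631. PYL1 at 0.37 CPM in *msh-1* and 0.99 CPM in WT, and PYL3 at 3.42 CPM in *msh-1* and 3.20 CPM in WT, were too low to test. The 4 dimeric receptors summed to 50.6 ± 8.70 CPM in *msh-1* and 42.0 ± 7.86 CPM in WT, so that the 10 monomeric genes carried most receptor transcripts in both genotypes.

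All 9 clade A PP2C genes could be tested, and 6 had positive log2 fold changes. AHG1, a seed phosphatase and the most abundant, averaged 517 ± 25.7 CPM in *msh-1* and 499.7 ± 36.6 CPM in WT, with a log2 fold change of 0.05 and an edgeR adjusted p of 0.915. The 3 with an unadjusted p under 0.05 were AHG3, HAI2 and HAI3, named here because of their values. In each the groups did not overlap, with *msh-1* above WT, as in 2.57% of all genes tested. AHG3, also known as PP2CA, averaged 187 ± 20.0 CPM in *msh-1* and 151 ± 7.02 CPM in WT, with a log2 fold change of 0.32 and an edgeR adjusted p of 0.25. HAI2 had a log2 fold change of 0.30 with an edgeR adjusted p of 0.366, and HAI3 one of 0.40 with an edgeR adjusted p of 0.416. Without WT 4 and *msh-1* 1 the edgeR adjusted p was 0.0274 for AHG3 and 0.0272 for HAI2, at log2 fold changes of 0.37 and 0.39, below the 1.5-fold required, whereas HAI3 had 0.46 with an edgeR adjusted p of 0.211.

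Both SnRK2 kinases tested had negative log2 fold changes. SnRK2.3, the more abundant, averaged 42.4 ± 3.02 CPM in *msh-1* and 45.0 ± 5.18 CPM in WT, with a log2 fold change of -0.06. SnRK2.6, the kinase of guard cells, averaged 1.46 CPM in *msh-1* and 2.94 CPM in WT and was too low to test. ABI5, the most abundant of the transcription factors, averaged 556 ± 39.5 CPM in *msh-1* and 559 ± 30.0 CPM in WT, with a log2 fold change of -0.01 and an edgeR adjusted p of 1.00. Its level was thus more than that of all 14 receptor genes together in either genotype.

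**Figure D4:**
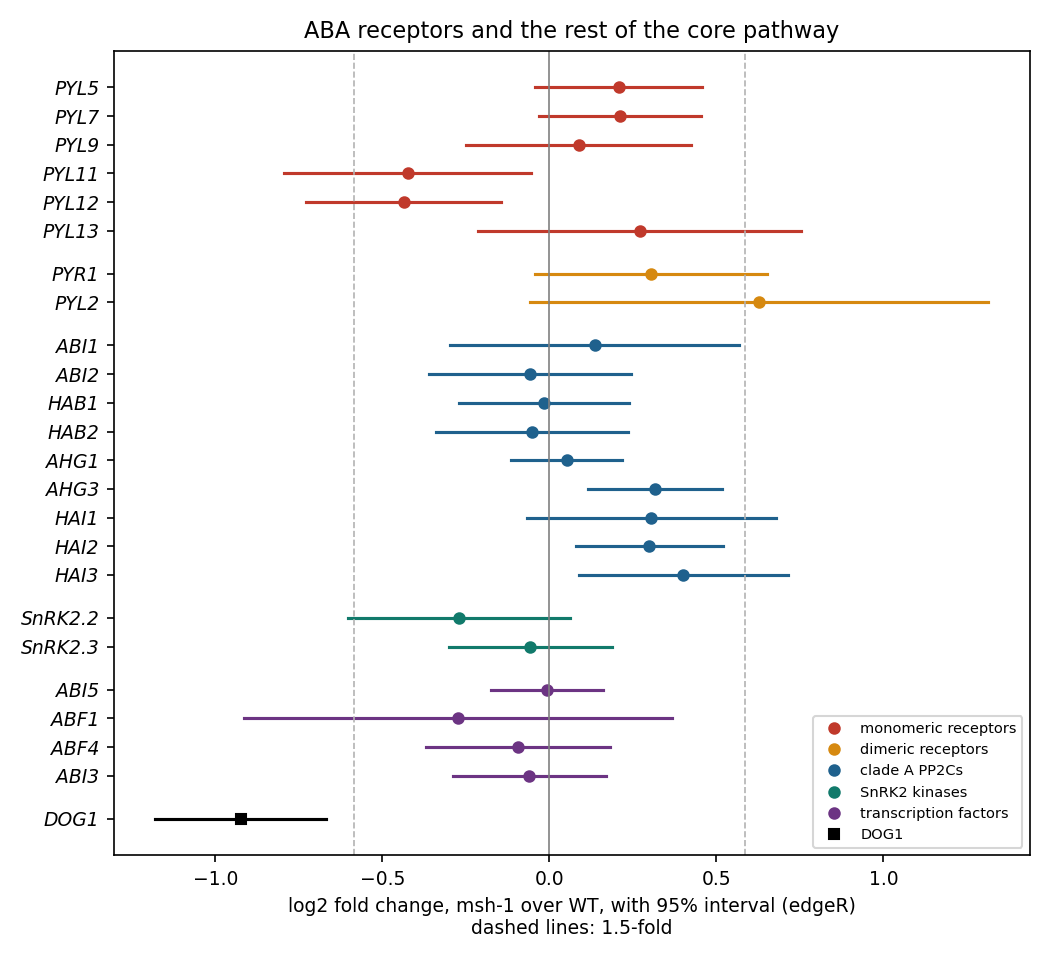
log2 fold change of *msh-1* over WT (x axis) with its 95% interval from edgeR for the tested monomeric receptors (red), dimeric receptors (orange), PP2Cs (blue), SnRK2 kinases (green), transcription factors (purple) and DOG1 (black). Dashed lines mark 1.5-fold. The intervals of PYL11, PYL12, AHG3, HAI2 and HAI3 leave out 0, with the receptors on the negative and the phosphatases on the positive side, and only DOG1 was called.

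The pattern of PYL12 over the 8 libraries was compared with that of every gene tested by Pearson's r of log2(CPM + 0.5). It was most like APA1 (AT1G11910), an aspartic protease gene, with r = 0.978, followed by AT2G26970 with r = 0.951 and GH9A1 (AT5G49720), a membrane-bound cellulase gene, with r = 0.944. 26 genes had an r above 0.9. These are descriptions over 8 libraries that share the same contrast and scaling. APA1 had 547, 582, 509.9 and 485 CPM in *msh-1* 1 to 4, against 598, 583, 595 and 598 CPM in WT 1 to 4, with a log2 fold change of -0.16 and an edgeR adjusted p of 0.594, so the likeness is one of pattern rather than of size.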

How the data were processed

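Per the paper's methods and the submitters' processing notes, the authors sequenced 3' fragments primed with UMI-containing oligo(dT) and barcoded per library, aligned them with STAR 2.7.8a to TAIR10, demultiplexed them with BRBseqTools, and deposited raw counts for each gene and library. The annotation, the strand setting and whether UMIs were used in counting are not given in the sources used here. Chromatin pull-down samples (ChIRP-seq, ChIDP-seq) were not used here.

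Genotypes were compared by the quasi-likelihood test of edgeR 4.0.16 under R 4.3.3 (TMM factors, default filter on low counts, genotype as the only term, Benjamini-Hochberg adjustment over all genes tested). The standard error of a log2 fold change is its size over the square root of F. For single genes a two-sided exact permutation test of log2(CPM + 0.5) ran over all 70 assignments. Alternatives were DESeq2 1.42.0, limma-voom (limma 3.58.1), other factors and filters, a replicate block, libraries left out, and equal depth. The code was tested on simulated data. Of the gene IDs, 36899 matched TAIR10.1, which gave symbols, gene order and sequences. Since the build names differ, no coordinates are given.

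The members and lists were chosen with earlier results of these data known. Named genes were the 10 members, the dimeric receptors, pathway genes that were called or highest in their role, DOG1, and the 3 genes most like PYL12. AHG3, HAI2, HAI3, SnRK2.6, MEE62, SAG12, the single marker genes and AT4G01030, which overlaps PYL7, fall outside this rule and were named after their values were seen. The lowest chi-square per gene between libraries of a genotype was 1.47, above the value of 1 for repeat counts of a single library, and each was counted as a sample. Totals of 959004 to 6500907 counts limit what low genes can show.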

Additional observations from a re-analysis of the deposited data

Results flagged for a closer look

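PYL6 was at 0.400 CPM in WT 3 and at 0 in the other WT libraries, so that this library stood apart from its group. The value is a single count. 30 groups of values were looked at in this way, of which chance would set about 1.5 apart.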

How the results depend on the processing

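No monomeric receptor, no other pathway gene and no gene around DOG1 other than DOG1 itself was called under any of the 17 alternatives, and each tested receptor kept its direction in all of those that tested it (PYL13 was not tested with at least 10 counts in every library). The log2 fold change of PYL12 ran from -0.53 to -0.33 and its adjusted p from 0.027 to 0.619, and that of PYL11 from -0.57 to -0.31 with an adjusted p from 0.113 to 0.967. The count of all genes called, 45, was far less stable. It was 438 with no filter on low counts and 1 with at least 10 counts in every library, 89 in DESeq2, 24 in limma-voom, 280 without WT 4 and *msh-1* 1 together, and 11.5 as the median of 20 draws at equal depth. Leaving out 1 library at a time gave 4 to 210. Apart from fewer genes or samples in some of these, the cause was not tested. At equal depth the medians over 20 draws for DOG1 were an edgeR adjusted p of 0.0729 and a log2 fold change of -0.90. DOG1 was called in 5 of the 20 draws and had an unadjusted edgeR p under 0.05 in all 20.

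With the replicate number as a block, 24 genes were called and none of the receptors, and the green tissue gene RBCS3B had an edgeR adjusted p of 0.049. PYL12 then had a log2 fold change of -0.45 and an edgeR adjusted p of 0.424. The correlations between same-numbered libraries, after taking out the genotype means, were -0.22, 0.15, 0.06 and -0.09. The highest of all, 0.40, was between *msh-1* 1 and WT 4, the libraries that lay lowest on the first principal component. Such values cannot show whether samples were matched in growth or handling, and the main test did not use the numbers as pairs. The log2 ratio of the summed receptor level was -0.06, and -0.117 to -0.0115 when single libraries were left out. Without WT 3 the difference in mean log2(CPM + 0.5) was -0.91 for PYL4 and 0.70 for PYL6, with no library above the floor of 3 counts. Library totals in place of TMM factors, added for PYL4, PYL6 and PYL8 after the data were seen, left their directions as they were.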
